A study of Rattus norvegicus with 5 samples.

Results

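The cholesterol and fatty acid synthesis genes of the rat cornea are described here: 30 genes chosen by name, from the enzymes that build squalene and cholesterol to those that make, desaturate and elongate fatty acids, with the regulators of both routes and a lipid droplet protein. Of these, 28 had a row among the 20339 genes of the table, and Elovl6 was read from its isoform row. These 29 all passed the filter on low counts that left 13305 genes for testing. The transcript of Sc5d was not analysed here. RNA was sequenced from whole corneas of 6-month-old male Sprague-Dawley rats, 3 of them wild-type and 2 of them transgenic P1 hMR animals, which overexpress human NR3C2. That gene encodes the mineralocorticoid receptor, a steroid receptor for aldosterone and glucocorticoids. The labels do not say what drives the transgene, whether litters or founders were shared, or whether each library is 1 rat, so p-values measure the spread between these samples.

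Animal cells build cholesterol from acetyl-CoA through mevalonate, isoprenoid units and squalene, and then remodel the sterol ring in a chain of oxidation and reduction steps. Most of these enzymes are under the control of SREBP-2 (gene Srebf2), a transcription factor held in the endoplasmic reticulum by Scap and Insig proteins while sterols are plentiful; SREBP-1 (Srebf1) acts more on the genes of fatty acid synthesis. The corneal epithelium renews itself throughout life and needs membrane lipid for this, and the cornea is a tissue without blood vessels.

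Column totals ran from 20874010 to 30449675 counts per library. Member counts lay between 68 (Plin2) and 20655 (Hmgcs1), and for 28 of 29 members the counting error of the lowest library was under 5%. Normalised counts are given as CPM, the share of the library after TMM scaling. They are not scaled for gene length here, so levels are compared between libraries and not between genes. Human NR3C2 had 0 CPM in each wild-type library and reached 42.2 CPM in the first and 36.5 CPM in the second transgenic cornea. Krt12, the keratin of the corneal epithelium, had 32245 to 45503 CPM over the 5 libraries. The 7 epithelial markers together had 99149 to 124775 CPM. Such sums depend on the markers chosen and do not give the share of a cell type.

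Promoter sequences were matched by symbol to a RefSeq table of build GRCr8 (the submitters' processing notes list rn6 for the counts), which gave 26 promoters of 24 of the 30 genes, each running from 250 bases before to 50 bases after the gene start. Shown first are those of 3 sterol enzymes and Insig1, members with large differences between libraries of the same genotype, and of Fads1, the member of smallest p. Capitals mark CCAAT and its reverse complement, the box bound by NF-Y, a factor that works beside SREBPs at sterol genes.
Hmgcs1 (chr2:53382054-53382353, plus strand): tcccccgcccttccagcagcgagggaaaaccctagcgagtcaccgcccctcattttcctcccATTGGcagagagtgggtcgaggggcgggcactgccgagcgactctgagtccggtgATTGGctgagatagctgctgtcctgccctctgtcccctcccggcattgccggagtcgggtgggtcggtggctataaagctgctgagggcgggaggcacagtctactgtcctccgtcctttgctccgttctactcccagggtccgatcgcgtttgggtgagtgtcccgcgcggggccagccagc
Insig1 (chr4:8057720-8058019, minus strand): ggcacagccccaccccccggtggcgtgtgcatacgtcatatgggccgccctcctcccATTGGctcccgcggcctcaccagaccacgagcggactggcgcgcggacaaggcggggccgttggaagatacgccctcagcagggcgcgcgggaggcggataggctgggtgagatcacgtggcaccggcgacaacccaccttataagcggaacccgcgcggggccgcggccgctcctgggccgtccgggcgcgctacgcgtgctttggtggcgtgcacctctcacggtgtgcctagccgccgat
Lss (chr20:12118181-12118480, minus strand): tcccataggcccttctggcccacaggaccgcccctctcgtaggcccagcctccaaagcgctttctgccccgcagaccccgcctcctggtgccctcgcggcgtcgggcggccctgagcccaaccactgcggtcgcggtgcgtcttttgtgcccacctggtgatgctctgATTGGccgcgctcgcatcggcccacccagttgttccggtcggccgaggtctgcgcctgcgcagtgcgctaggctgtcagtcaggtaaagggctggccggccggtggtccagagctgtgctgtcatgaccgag
Msmo1 (chr16:29746863-29747162, plus strand): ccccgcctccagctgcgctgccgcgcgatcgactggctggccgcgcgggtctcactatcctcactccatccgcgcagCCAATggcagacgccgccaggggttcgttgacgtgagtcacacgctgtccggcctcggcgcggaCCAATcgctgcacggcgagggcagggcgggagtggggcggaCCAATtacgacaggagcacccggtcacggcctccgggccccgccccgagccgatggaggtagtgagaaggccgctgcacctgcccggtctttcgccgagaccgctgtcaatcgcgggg
Fads1 (chr1:216252442-216252741, plus strand): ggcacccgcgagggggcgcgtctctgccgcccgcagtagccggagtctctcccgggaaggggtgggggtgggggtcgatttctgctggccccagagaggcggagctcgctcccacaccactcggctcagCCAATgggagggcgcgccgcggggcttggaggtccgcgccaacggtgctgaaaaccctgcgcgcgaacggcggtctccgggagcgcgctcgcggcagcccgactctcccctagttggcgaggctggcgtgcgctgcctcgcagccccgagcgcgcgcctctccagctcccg

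The CCAAT box was in 19 of the 26 member promoters (73.1%), against 37.5% of all 33469 promoters of the table and 36.9% of the 11251 whose symbol was among the genes tested. Both strands were searched. The promoters without a box, none of them printed above, were those of Acat2, Cyp51, Dhcr7, Fads2, Scap and Scd, and 1 of Plin2. In transgenic cornea 2, Acat2, Scd and Dhcr7 stood at 0.667, 0.626 and 0.700 times their level in cornea 1. Cyp51, Fads2 and Scap stood at 0.788, 0.833 and 1.04 times. Hmgcs1, Insig1, Lss and Msmo1, printed above and chosen for large differences between libraries, stood at 0.702, 0.686, 0.780 and 0.769 times. Over all measured members with a box the range was wider, from 0.622 (Mvd) to 0.986 (Elovl5) and 1.04 (Plin2, with a box in only 1 promoter). Of 14 sterol enzymes with a promoter, Sc5d among them, 11 held at least 1 box. Hmgcs1 has boxes starting 188 and 133 bases before the gene start, Msmo1 at 173, 109 and 68, Lss at 82, Insig1 at 193 and Fads1 at 121. The core of the sterol regulatory element, TCACNCCAC, was in 0 of 26 member promoters and in 1.12% of all promoters. The shorter CACNCCAC, which lies within that core and was searched after the first result was seen, was in 5 (Acat2, Ebp, Elovl5, Fads1 and Insig1; 19.2%, against 5.8% of all promoters and 5.69% of those of tested genes). The E-box CACGTG was in 5 (19.2%, against 6.42% and 8.83%), and ACANNNTGT, the core of the steroid receptor palindrome, in 1 (Msmo1; 3.85%, against 6.86% and 3.97%). These are matches of letters in a short window.

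Transcripts of lipid synthesis differed little between genotypes relative to the spread between libraries of the same genotype. None of the 29 members passed the edgeR quasi-likelihood test: 0 were called higher and 0 lower in transgenic corneas at an adjusted p of 0.05, where 0.00752% of all tested genes (the transgene alone) were called. DESeq2, which called 0.455% of the genes it tested, and limma voom (0.00752%) also called 0 members. At an unadjusted p under 0.05 edgeR gave 1 member (Fads1), limma voom 1 (Fads1) and DESeq2 2 (Lss and Fads1), with 6.32% of all tested genes below that p by edgeR (4.39% higher, as Fads1 was by its estimate, and 1.93% lower). The median log2 fold change of the members was -0.06, against -0.0077 for all tested genes, and 19 of 29 estimates were below 0, against 51.8% of all tested genes. The median was -0.24 without transgenic cornea 1 and 0.07 without transgenic cornea 2.

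**Figure D1:**
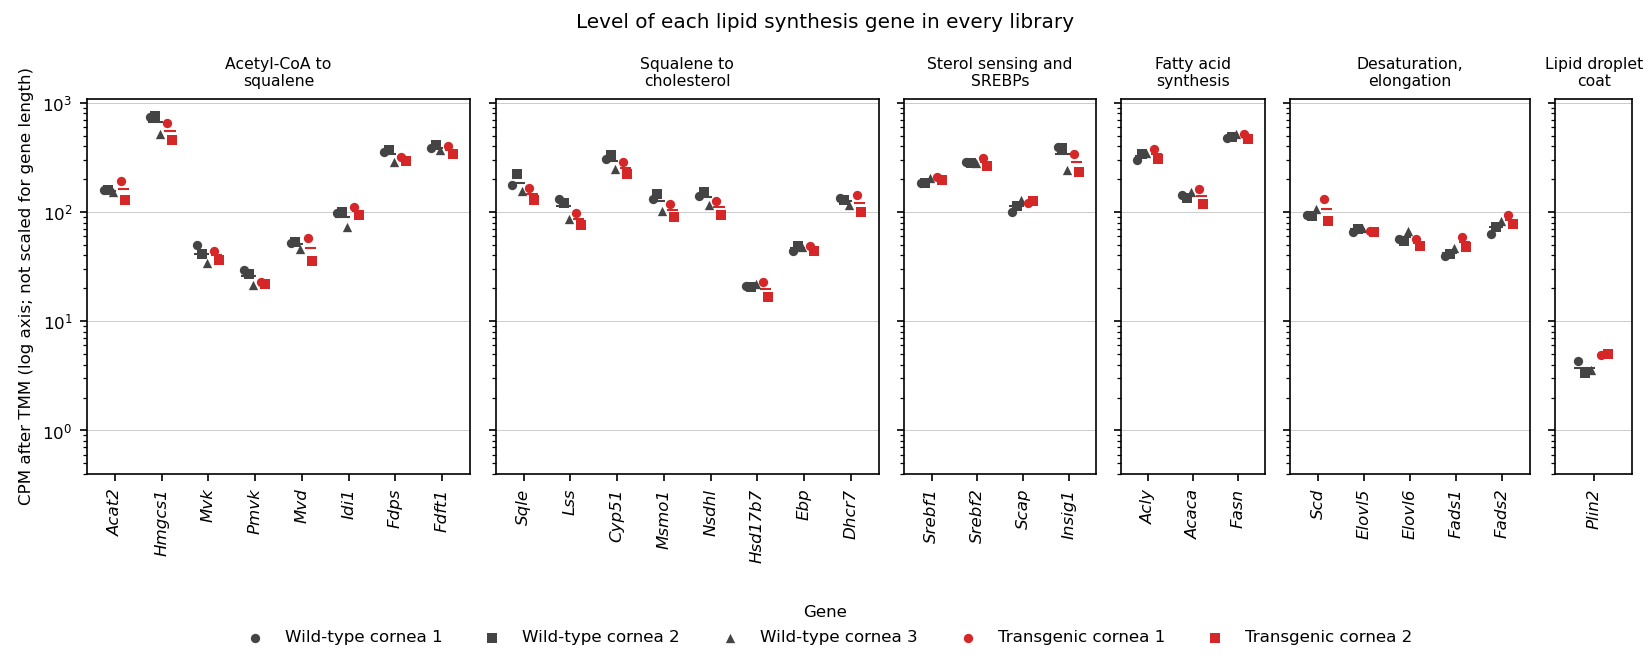
CPM after TMM scaling (log axis) of each of the 29 genes in the 5 libraries, grouped by role, with short lines at the group means. Points of wild-type (dark) and transgenic (red) corneas overlap for 27 genes. Only Fads1 and Plin2 have both transgenic points above all wild-type points, as 12.0% of all tested genes do. None has both below, where 10.7% of all tested genes do.

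The precision was enough to limit the size of most differences. For 19 of 29 members the 95% interval of the fold change lay within 1.5-fold either way, as it did for 60.8% of all tested genes. Intervals that reached beyond a 1.5-fold decrease were those of Hmgcs1, Mvd, Sqle, Lss, Msmo1, Nsdhl and Insig1. Those of Scd, Fads1 and Plin2 reached beyond a 1.5-fold increase.

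**Figure D2:**
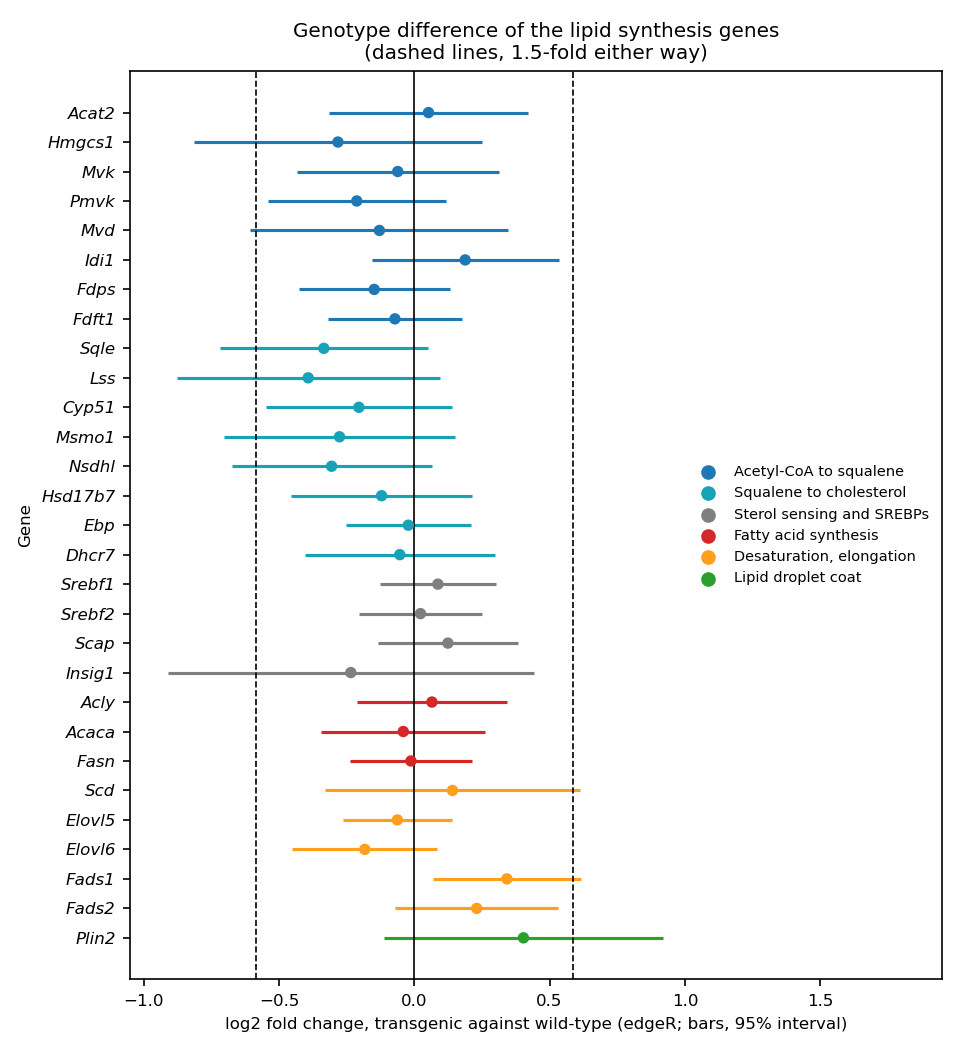
Log2 fold change of transgenic against wild-type corneas from edgeR (points) with its 95% interval (bars), by gene and coloured by role; dashed lines mark 1.5-fold. Estimates of the squalene-to-cholesterol enzymes all lie left of 0, and the interval of Fads1 is the only one that does not include 0.

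The first stage of cholesterol synthesis, from acetyl-CoA to squalene, had 0 of 8 members called, with 2 estimates above 0, 6 below and a median log2 fold change of -0.10. Hmgcs1 makes HMG-CoA, the precursor of mevalonate. In wild-type libraries 1, 2 and 3 it stood at 746, 757 and 516 CPM, and in transgenic libraries 1 and 2 at 651 and 456 CPM; later sets of values keep this order. The lowest wild-type library lay between the transgenic ones, and the log2 fold change was -0.28 ± 0.22 (SE; edgeR adjusted p = 0.874). It was -0.56 without transgenic cornea 1, -0.049 without transgenic cornea 2 and -0.44 without wild-type cornea 3. Pmvk, the kinase that adds the second phosphate to mevalonate, had wild-type values of 29.6, 26.9 and 21.4 CPM and transgenic values of 22.8 and 22.1 CPM (log2 fold change -0.21 ± 0.15, edgeR adjusted p = 0.860). Both transgenic values were below those of wild-type corneas 1 and 2 and above that of cornea 3.

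Idi1, the isomerase of the isoprenoid units, went the other way by its estimate (log2 fold change 0.19 ± 0.15, edgeR adjusted p = 0.874), with wild-type values of 97.5, 100.2 and 72.8 CPM and transgenic values of 111.7 and 93.8 CPM. Only wild-type cornea 3 stood below both transgenic libraries, and the estimate was 0.059 without it, 0.056 without transgenic cornea 1 and 0.31 without transgenic cornea 2. Means of the mevalonate kinase gene Mvk were 41.6 ± 7.69 CPM for wild-type (SD, n = 3) and 39.97 ± 5.25 CPM for transgenic libraries (SD, n = 2), here and in later pairs of means. Those of the decarboxylase gene Mvd were 50.7 ± 3.93 and 46.4 ± 15.5 CPM. Fdps, which makes farnesyl diphosphate, had 338 ± 43.3 and 305 ± 21.9 CPM, and Fdft1, squalene synthase, 387 ± 23.5 and 368 ± 43.2 CPM. Acat2, which joins acetyl-CoA units at the start of the route, had a wild-type mean of 155 ± 3.34 CPM, with the transgenic libraries on either side, at 193 and 128.9 CPM.

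All 8 measured enzymes between squalene and cholesterol had estimates below 0, where 51.8% of all tested genes did, and 0 of them passed. Their median log2 fold change was -0.24. Sqle, squalene epoxidase and a rate-controlling step, had wild-type values of 178, 221 and 157 CPM and transgenic values of 164 and 129.7 CPM (log2 fold change -0.33 ± 0.17, edgeR adjusted p = 0.826). Transgenic cornea 2 was the lowest of the 5, and transgenic cornea 1 lay above wild-type cornea 3. Nsdhl, one of the enzymes that remove the methyl groups at carbon 4, had wild-type values of 139, 153 and 117 CPM and transgenic values of 127 and 93.7 CPM (-0.31 ± 0.16, edgeR adjusted p = 0.834), in the same arrangement.

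Lss, the cyclase that closes the sterol rings, had the lowest estimate of all members, -0.39 ± 0.20 (edgeR adjusted p = 0.835), with wild-type values of 133, 119.9 and 86.8 CPM and transgenic values of 96.96 and 75.5 CPM. Cyp51, the lanosterol demethylase, had means of 293 ± 42.6 and 254 ± 42.6 CPM, and Msmo1, the methylsterol oxidase, 126 ± 22.9 and 104 ± 19.3 CPM. Late enzymes had estimates nearer 0: the group means of Ebp, a sterol isomerase, were 47.0 ± 2.45 and 46.3 ± 3.91 CPM and those of Dhcr7, the last reductase, 127 ± 9.80 and 122 ± 30.6 CPM. Hsd17b7, a reductase of sterol ketones, had wild-type values of 21.2, 20.6 and 22.0 CPM and transgenic values of 22.6 and 16.6 CPM, with 1 transgenic library above and 1 below all wild-type ones. For none of the 16 sterol enzymes among the members were the genotypes apart. Of all tested genes, 10.7% had both transgenic libraries below all wild-type ones and 12.0% above. The median over the 16 sterol enzymes, -0.14, was -0.35 without transgenic cornea 1 and 0.00060 without transgenic cornea 2.

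Among the regulators 0 of 4 were called, with a median log2 fold change of 0.06. Srebf2 had wild-type values of 287, 283 and 280.4 CPM, the smallest relative spread of any member in that group (SD 1.11% of the mean). Its transgenic values of 309.8 and 266 CPM lay on either side. Its log2 fold change was 0.02 ± 0.10 with a 95% interval of -0.20 to 0.25 (edgeR adjusted p = 0.980). Srebf1 had wild-type values of 184, 184 and 203 CPM and transgenic values of 208 and 197 CPM (0.09 ± 0.10, 95% interval -0.13 to 0.30, edgeR adjusted p = 0.901). The groups overlapped through wild-type cornea 3. Scap, the sterol sensor that escorts SREBPs to the Golgi, had wild-type values of 100.1, 112 and 129 CPM and transgenic values of 122 and 126 CPM (0.12 ± 0.12, edgeR adjusted p = 0.883).

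Insig1, which retains Scap and is itself a sterol-responsive target, had the largest relative spread among wild-type libraries of any member (SD 24.5% of the mean). It had wild-type values of 391, 381 and 243 CPM and transgenic values of 341 and 234 CPM. Within each genotype 1 library was low, wild-type cornea 3 and transgenic cornea 2, and the difference between genotypes was -0.23 ± 0.27 (edgeR adjusted p = 0.911). It was 0.01 without transgenic cornea 2 and -0.53 without transgenic cornea 1.

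Estimates for fatty acid synthesis lay close to 0, and 0 of 3 members were called. The 3 enzymes that turn citrate into palmitate had log2 fold changes of 0.07 ± 0.12 (Acly), -0.04 ± 0.13 (Acaca) and -0.01 ± 0.10 (Fasn), with edgeR adjusted p-values of 0.951 to 0.991, and their 95% intervals lay within 1.5-fold either way. Fasn, the fatty acid synthase, had wild-type values of 475, 486 and 513 CPM and transgenic values of 513 and 462 CPM. Acly, which releases acetyl-CoA from citrate, had wild-type values of 297, 339 and 345 CPM and transgenic values of 380.2 and 303 CPM. Acaca, the acetyl-CoA carboxylase, had wild-type values of 143, 135 and 154 CPM and transgenic values of 161 and 118.5 CPM. For both, transgenic cornea 1 was the highest of the 5 libraries, and transgenic cornea 2 was the lowest for Acaca and second lowest, after wild-type cornea 1, for Acly.

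Among desaturases and elongases 0 of 5 were called. Fads1, the delta-5 desaturase of polyunsaturated fatty acids, had wild-type values of 39.4, 40.9 and 46.5 CPM and transgenic values of 59.3 and 47.9 CPM. Both transgenic libraries lay above all wild-type ones, as in 12.0% of all tested genes, but cornea 2 did so by a small margin; the log2 fold change of 0.34 ± 0.12 (unadjusted p = 0.0196) did not pass (edgeR adjusted p = 0.702) and was 0.18 without transgenic cornea 1. Fads2, the delta-6 desaturase encoded beside it, had wild-type values of 62.5, 72.8 and 82.8 CPM and transgenic values of 93.1 and 77.5 CPM (0.23 ± 0.13, edgeR adjusted p = 0.835), with transgenic cornea 2 inside the wild-type range.

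Scd, a stearoyl-CoA desaturase, had a wild-type mean of 97.0 ± 7.48 CPM, and its transgenic values of 131.8 and 82.3 CPM lay on either side of the wild-type libraries. Elovl5, an elongase of polyunsaturated fatty acids, was the steadiest over the 5 libraries, with a highest value 1.08 times its lowest (69.2 ± 2.71 and 66.3 ± 0.687 CPM). Elovl6, which elongates palmitate, had 59.2 ± 6.67 and 52.2 ± 5.42 CPM (-0.18 ± 0.12, edgeR adjusted p = 0.860). Its isoform row may hold only part of the gene's reads: in the 28 other members, named isoform rows held between 4.74% and 100% of the gene's counts.

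Plin2, the coat protein of lipid droplets, had the fewest counts of the members. It had wild-type values of 4.30, 3.33 and 3.60 CPM and transgenic values of 4.86 and 5.06 CPM, from 68 to 159 counts a library. Both transgenic libraries lay above all wild-type ones, as in 12.0% of all tested genes. The log2 fold change of 0.40 ± 0.23 did not pass (edgeR adjusted p = 0.835). The counting error alone is 12.1% for the library of 68 counts.

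Among the members, most sterol enzymes and the fatty acid enzymes went opposite ways in wild-type cornea 3, and the same way in the transgenic pair. These patterns were noticed in the data and are given without a test. In wild-type cornea 3, 14 of the 16 sterol enzymes were at their lowest of the 3 wild-type libraries, where 35.1% of all tested genes were. All 8 fatty acid enzymes (Acly, Acaca, Fasn, Scd, Elovl5, Elovl6, Fads1 and Fads2) were at their highest there, where 34.2% of all tested genes were. The exceptions among the sterol enzymes were Hsd17b7, highest in that library, and Ebp, in the middle. The fatty acid enzymes stood there at 1.04 (Elovl5) to 1.23 (Fads2) times their mean in wild-type corneas 1 and 2. Some margins were small: Elovl5 had 71.2 CPM there, against 70.4 CPM in wild-type cornea 2. The median difference of wild-type cornea 3 from the mean of the other two was -0.33 on the log2 scale for the sterol enzymes and 0.17 for the fatty acid enzymes, against -0.0029 for all tested genes.

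**Figure D3:**
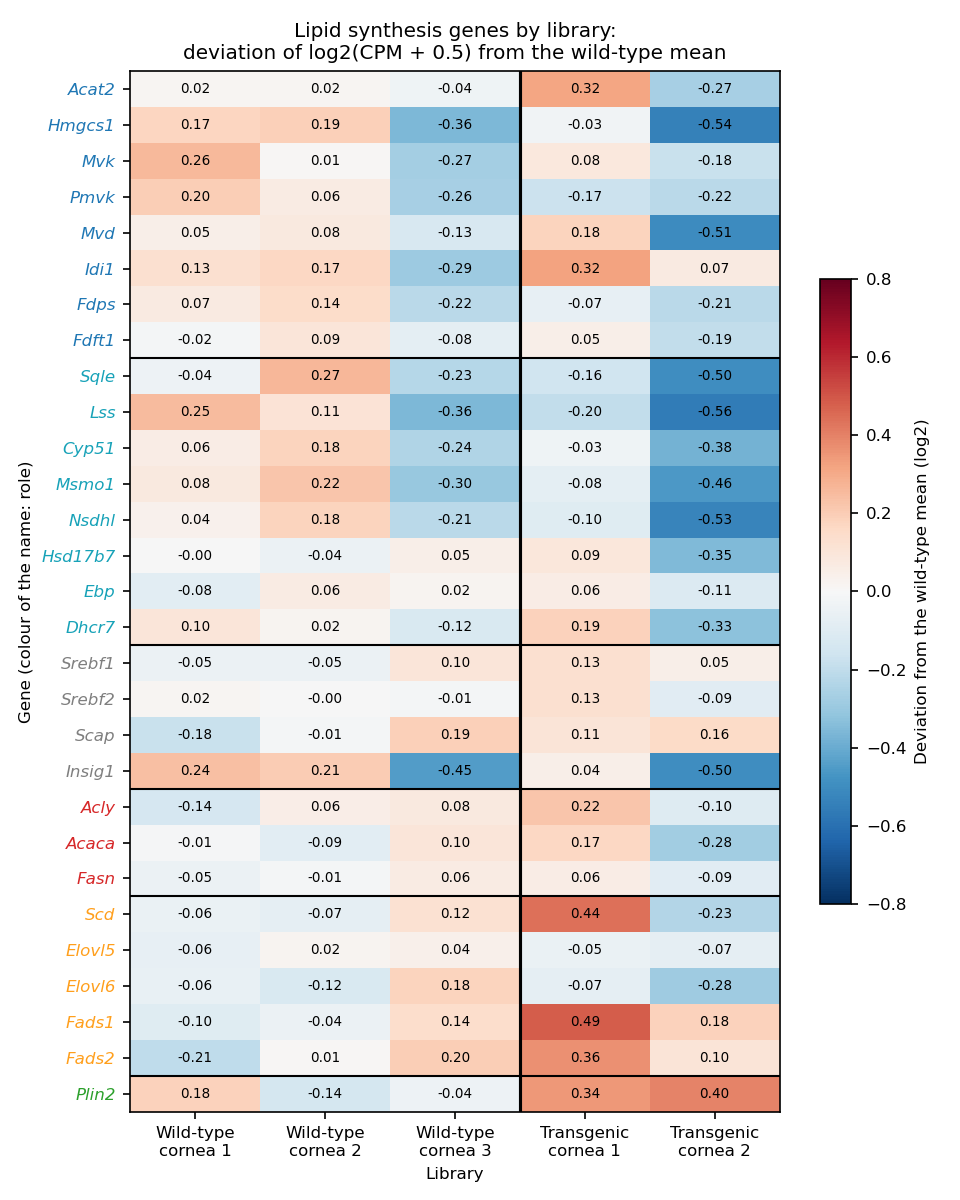
Deviation of log2(CPM + 0.5) from the wild-type mean, by gene (rows, grouped by role) and library (columns). In wild-type cornea 3 the upper, sterol block is mostly blue and the fatty acid block red; in transgenic cornea 2 both blocks are mostly blue, with Idi1, Fads1 and Fads2 the enzymes above 0.

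In the transgenic pair, all 16 sterol enzymes and all 8 fatty acid enzymes among the members were lower in cornea 2 than in cornea 1, where 49.7% of all tested genes were. Both features together, lowest in wild-type cornea 3 and lower in transgenic cornea 2, held for 14 of 16 sterol enzymes (17.7% of all tested genes), and highest in the former with lower in the latter for 8 of 8 fatty acid enzymes (16.7%). Outside the members, 3 of 4 further genes of sterol synthesis and 8 of 13 of fatty acid synthesis were lower in transgenic cornea 2 than in cornea 1, and 1 of 4 and 3 of 13 were lowest in wild-type cornea 3. Of those 13 fatty acid genes, Acacb, Acss2, Me1, Elovl7, Tecr and Thrsp were highest in wild-type cornea 3. Scd2, Slc25a1 and Fads3 were lowest there, and Elovl1, Elovl4, Hsd17b12 and Hacd3 lay between. Over all tested genes the median log2 difference of the transgenic pair was 0.0013. Among the members it was -0.35 for the sterol and -0.28 for the fatty acid enzymes. Mvd had the largest, at 57.4 CPM in cornea 1 and 35.5 CPM in cornea 2, or 0.622 times; Scd followed at 0.626 times. Insig1 was 0.686 times as high in transgenic cornea 2 as in cornea 1, and 0.629 times as high in wild-type cornea 3 as in the other two. Srebf2 itself was at 0.858 and 0.985 times in the same comparisons, and Scap at 1.04 and 1.22 times.

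**Figure D4:**
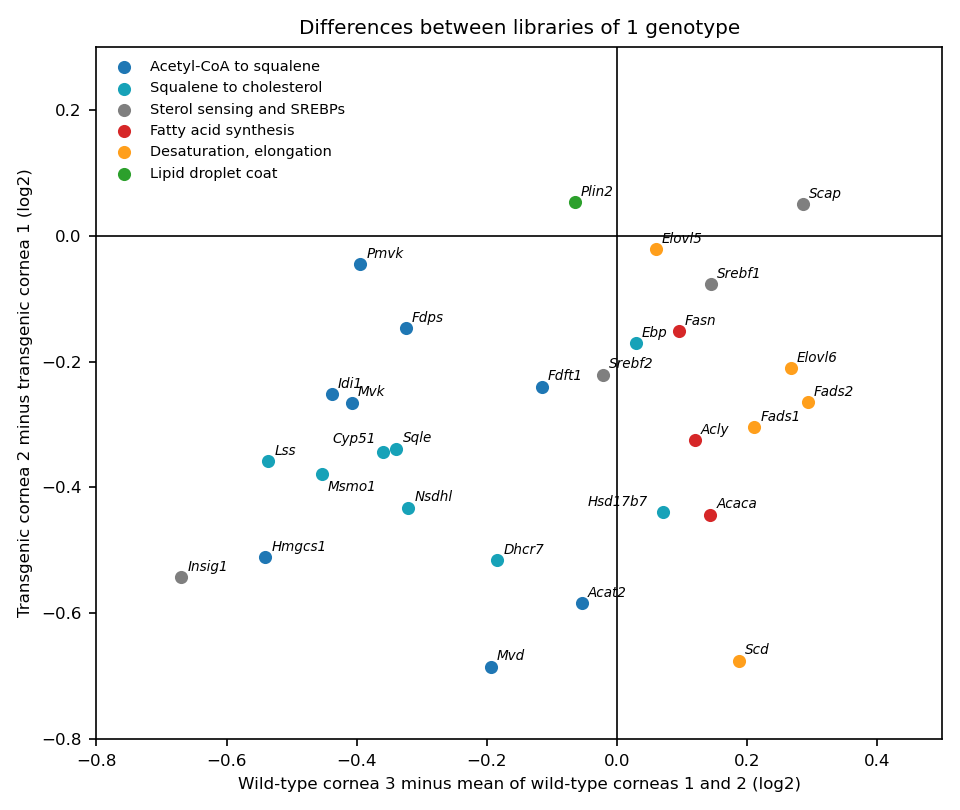
For each gene, the log2 difference of wild-type cornea 3 from the mean of wild-type corneas 1 and 2 (x axis) against that of transgenic cornea 2 from transgenic cornea 1 (y axis), coloured by role. Most sterol enzymes and Insig1 lie at the lower left and the fatty acid enzymes at the lower right; Scap and Plin2 are the only genes above 0 on the y axis.

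Other measures also differed between these libraries. The summed level of the 7 epithelial markers put wild-type cornea 3 (113089 CPM) between the other wild-type libraries (106775 and 120851 CPM). By this sum transgenic cornea 2 was lowest of the 5 (99149 CPM) and transgenic cornea 1 highest (124775 CPM). Of the 7 markers, 6 were lower in transgenic cornea 2 than in cornea 1, among them Pax6 by little (468 against 477 CPM). Krt14 went the other way, with 1973 CPM in transgenic cornea 2 and 1281 CPM in cornea 1. The 8 stromal markers, for the keratocyte layer, had wild-type sums of 2248 to 2337 CPM and transgenic sums of 2779 and 3010.2 CPM, and 7 of 8 had estimates above 0, with 0 called and 6 at an unadjusted p under 0.05. In bulk tissue, fewer cells of a type and less RNA per cell cannot be told apart. Some clock genes, picked after their values were seen, differed more: Dbp, a clock output gene, had wild-type values of 66.2, 159 and 274 CPM and transgenic values of 221 and 349 CPM. Arntl, the core activator also called Bmal1, had wild-type values of 45.4, 29.6 and 14.1 CPM and transgenic values of 21.0 and 8.15 CPM. Dbp was highest and Arntl lowest of its genotype in wild-type cornea 3 and transgenic cornea 2. Tef (210.4 and 242 CPM) and Per3 (247 and 250.2 CPM) were also highest there. Values of the transgenic pair were closer together for 2 further clock genes: Nr1d1 had 409 and 431 CPM and Npas2 9.02 and 9.07 CPM, with wild-type values of 204, 315 and 436 CPM and of 21.7, 9.49 and 8.10 CPM. The part of cell composition or clock time in the differences of lipid genes was not tested.

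Cells of neighbouring lipid-rich tissues left little signal. The 8 adipocyte markers had wild-type sums of 6.86 to 7.34 CPM and transgenic sums of 7.48 to 7.94 CPM. Most of each sum was 1 gene, Lipe (5.27 to 7.25 CPM), and Adipoq was at 0.196 CPM or less in every library. The 8 markers of meibomian and sebaceous glands had wild-type sums of 23.8 to 25.5 CPM and transgenic sums of 24.1 to 24.3 CPM, nearly all of it Pparg, which other cells also express (23.1 to 24.8 CPM); Awat1 and Mc5r were at 0 in all 5 libraries. Pigment-cell markers (6 of 7 measured) had wild-type sums of 9.88 to 49.8 CPM and transgenic sums of 86.9 and 160.6 CPM, and the 7 lens markers 23.4 to 130.5 and 9.14 to 16.0 CPM; 0 markers of either list were called, and their part in the lipid genes was not tested. The 6 immune markers had wild-type sums of 88.1 to 97.7 CPM and transgenic sums of 79.8 and 91.4 CPM, and the 5 markers of corneal endothelium 961 to 1028 and 1134 to 1156 CPM. For the 5 retina markers the sums were 2.496 to 15.6 and 17.3 to 21.4 CPM, for blood vessel (4 of 5 measured) 41.4 to 48.3 and 52.0 to 63.7 CPM, and for skeletal muscle (4 of 5 measured) 9.43 to 20.5 and 14.2 to 16.7 CPM.

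Other genes of lipid handling gave no call either. Of 69 genes in 6 lists, 63 had a row and 59 were tested: 0 were higher and 0 lower at an adjusted p of 0.05, and 5 of 59 had an unadjusted p under 0.05, where 6.32% of all tested genes did. Median log2 fold changes were -0.02 for 4 further genes of sterol synthesis, -0.06 for 11 of sterol uptake and transport, -0.01 for 9 of sterol efflux, 0.07 for 13 of fatty acid synthesis, 0.10 for 9 of triglycerides and droplets and -0.02 for 13 of fatty acid oxidation. The gene of smallest p in each list is named here. Acacb, the carboxylase at the mitochondrial surface, had wild-type values of 1.59, 1.66 and 2.23 CPM and transgenic values of 2.85 and 4.52 CPM (log2 fold change 1.02 ± 0.32, edgeR adjusted p = 0.599). Soat1, which esterifies cholesterol for storage, had wild-type values of 10.04, 10.4 and 9.24 CPM and transgenic values of 13.9 and 12.2 CPM (0.40 ± 0.15, edgeR adjusted p = 0.732). In both, the transgenic libraries lay above all wild-type ones, as in 12.0% of all tested genes. Both were picked for a small p, which that share does not allow for.

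Mgll, the monoacylglycerol lipase, had 10.5 ± 2.02 and 15.6 ± 4.87 CPM (0.58 ± 0.23, edgeR adjusted p = 0.749), and Acaa2, a thiolase of fatty acid oxidation, 77.97 ± 4.54 and 58.7 ± 15.4 CPM (-0.41 ± 0.15, edgeR adjusted p = 0.736). Tm7sf2, a sterol reductase, had 40.6 ± 3.24 and 46.3 ± 0.427 CPM (0.19 ± 0.10). Nr1h2, a receptor for oxysterols, had 71.9 ± 1.69 and 79.98 ± 1.78 CPM (0.15 ± 0.09). Each had an edgeR adjusted p of 0.835. Transgenic values of Tm7sf2 (46.6 and 46.0 CPM) and Nr1h2 (78.7 and 81.2 CPM) also lay above all wild-type ones. Those of Acaa2 (69.5 and 47.8 CPM) lay below all wild-type ones, as in 10.7% of all tested genes. For Mgll the genotypes overlapped.

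At the level of isoforms 38 rows carried a member's symbol, 37 were tested and 0 were called. No isoform of the whole table passed either (0%; 3.98% had an unadjusted p under 0.05, and 0 of the 37), and limma voom called 0. In 16 of 28 members the named rows held over 95% of the gene's counts. The member isoforms of smallest p were ENSRNOT00000078412 of Lss (log2 fold change -0.52 ± 0.25), ENSRNOT00000027834 of Fads1 (0.33 ± 0.17) and ENSRNOT00000033917 of Fdps, which had 29.3 counts at most (-1.87 ± 1.01), all with an edgeR adjusted p of 1.000.

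Srebf1, which makes more than one SREBP-1 protein, had 2 isoform rows that shared its reads. ENSRNOT00000004753 took 26.0%, 41.8% and 47.7% of them in the wild-type libraries, against 38.4% and 39.7% in the transgenic pair. Wild-type cornea 1 was the lowest, and both transgenic libraries lay within the wild-type range. The files do not say which protein each row encodes, and reads shared by isoforms were divided by estimation.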

How the data were processed

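RNA-seq of whole cornea was analysed for 3 wild-type and 2 transgenic rats. The authors deposited each estimated count (expected count, not normalized) in a gene and an isoform table. The submitters' processing notes list build rn6, STAR 2.5.3a and RSEM 1.2.28, beside edgeR 3.28.0, DESeq2 1.26.0, fastp and FastQC, with no role. The sources used here do not give strand, so antisense partners cannot be told apart.

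Counts were rounded, filtered with filterByExpr (minimum count 10), scaled by TMM and tested with edgeR 4.0.16 (quasi-likelihood, robust, two-sided) in R 4.3.3, with Benjamini-Hochberg adjustment over all 13305 genes and a threshold of 0.05; DESeq2 1.42.0 and limma 3.58.1 were alternatives. The SE is the fold change divided by the square root of F. Deviations use log2(CPM + 0.5). On simulated counts for transgenic against wild-type corneas (13151 genes after the filter) the test recovered 0 of 50 genes changed 1.25-fold, 13 of 50 at 1.5-fold, 36 at 2-fold and 46 at 4-fold, and called 15 unchanged genes. Members and lists were chosen with earlier results of these data known. Values per library are given for the regulators, the 2 genes of smallest p per role, any member with unadjusted p under 0.05 and the 2 of highest and 2 of lowest mean level; further values were chosen after they were seen.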

Additional observations from a re-analysis of the deposited data

How the results depend on the processing

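No member was called under any alternative run: RLE size factors, library size only, no low-count filter, DESeq2, limma voom, the replicate block and each library left out. The number with an unadjusted p under 0.05 ranged from 0 (without wild-type cornea 1 or 2) to 8 (without wild-type cornea 3) and 9 (replicate block). Over all tested genes that number moved too, from 841 to 783 and 564 without wild-type cornea 1 or 2. It was 1441 without wild-type cornea 3 and 1371 with the block. Wild-type cornea 3 is the only library numbered 3, so the block leaves it no part in the genotype estimate. The block run is therefore close to the run without that library. Over all genes, 2 were called with no filter, 57 by DESeq2, 16 with the replicate block and 2 to 36 with 1 library left out (6, 4 and 2 without wild-type cornea 1, 2 or 3, 36 and 5 without transgenic cornea 1 or 2). With 1 transgenic library left, it is assumed to vary like the wild-type ones. The members' median log2 fold change ranged from -0.24 to 0.068 with 1 library left out. Of 176 alternative values of the 16 named members, 166 kept their direction and 10 reversed, none of them called. With 1 library left out the log2 fold change ranged from -0.28 to 0.17 for Acaca, -0.11 to 0.22 for Acly, -0.091 to 0.062 for Fasn, -0.36 to 0.089 for Hsd17b7, -0.53 to 0.012 for Insig1 and -0.092 to 0.13 for Srebf2. Ranges that kept their sign were -0.56 to -0.049 for Hmgcs1, 0.056 to 0.31 for Idi1 (0.051 with the block), -0.54 to -0.10 for Nsdhl, -0.51 to -0.17 for Sqle, -0.33 to -0.097 for Pmvk, 0.047 to 0.23 for Scap, 0.048 to 0.14 for Srebf1, 0.18 to 0.49 for Fads1, 0.092 to 0.36 for Fads2 and 0.33 to 0.53 for Plin2. Fasn was at 0.0082 with library size only and 0.018 with the replicate block. The cause was not tested. Whether the shared replicate numbers pair the libraries cannot be told here. Correlations of deviations over genes were 0.000607 for number 1 and -0.105 for number 2. With 2 transgenic libraries, each deviation from their mean is the negative of the other, so these correlations cannot decide it. With the block the smallest adjusted p of a member was 0.145 (Lss, edgeR). Depth limits Plin2 most.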
